A study of Mus musculus with 6 samples.

Results

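Of the 23462 mouse genes matched on the arrays, 10 genes of triglyceride synthesis were followed here: *Gk*, *Gpd1*, *Gpam*, *Agpat2*, *Agpat3*, *Lpin1*, *Lpin2*, *Dgat1*, *Dgat2* and *Bscl2*. They were measured by every probe whose RefSeq accession maps to their symbols, which gave 20 probes, and each of the 20 was well above background on all 6 arrays. The samples were brown adipose tissue (BAT) of 3 wild-type (WT) and 3 miR-22 knockout (KO) mice, male and 8 weeks old according to the methods, with 1 mouse per array and no treatment named in the labels. The KO mice lack miR-22 constitutively and not in adipocytes alone, and in whole tissue fewer adipocytes and less RNA per adipocyte cannot be told apart. The study asked what miR-22 does in BAT, and the comparison made here is KO against WT for each probe.

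Triglycerides are assembled stepwise on glycerol 3-phosphate: fatty acids are joined to it to give lysophosphatidate and then phosphatidate, the phosphate is removed to give diacylglycerol, and a last fatty acid closes the molecule. The finished triglyceride is packed into lipid droplets at the endoplasmic reticulum. In brown adipocytes these droplets are many and small, and the fatty acids released from them are both the fuel of heat production and the activators of uncoupling protein Ucp1.

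A microRNA lowers its target transcripts by pairing through its seed, and the arms of the deleted hairpin are shown because they are the sequence that the KO mice lack. The seed (bases 2 to 8) is in capitals. The sequences are those of RefSeq on GRCm38.p6, with miR-22-3p at chr11:75463772-75463793 and miR-22-5p at chr11:75463734-75463755, both on the plus strand.
mmu-miR-22-3p: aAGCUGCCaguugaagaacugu
mmu-miR-22-5p: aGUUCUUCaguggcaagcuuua
No probe was matched to miR-22 itself, and the arrays thus hold no check of the deletion. *Mir22hg*, the host transcript of miR-22, was at 1.20, 1.69 and 1.22 in the WT mice and at 2.02, 2.11 and 2.23 in the KO mice, in log2 of the signal over the 75th percentile of the array. It was higher in every KO mouse than in any WT mouse (difference 0.75, SE 0.18, limma adjusted p = 0.108), and where its probe lies relative to the deletion is not given in the sources used here.

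The arrays held 62976 spots each, and well above background were 55.8 to 66.5% of the spots that are no controls. The 75th percentile of the signal, by which each array was divided before log2 was taken, lay between 1435 and 2633 units of intensity. It was 1984, 1435 and 1602 units on WT 1 to 3 and 2538, 2633 and 1599 units on KO 1 to 3. Marks of the scanner software for spots that are not uniform or are outliers lay on 15.1 and 17.1% of the spots of KO 1 and WT 3, against 4.87 to 6.12% on the other arrays. The marks sat on bright spots: in the brightest decile of an array's spots 29.2 to 73.2% were marked. Triglyceride genes are bright in this tissue, so 40 of their 120 probe values (33.3%) were marked, 21 in WT and 19 in KO mice, and 14 of the 20 probes carried at least 1 mark. Each probe is therefore given with all spots kept, and, where at least 2 unmarked values per group were left, also without the marked spots. WT 1 and WT 2 lay in row 1 of the slide and the other 4 arrays in row 2, so the difference between the KO mean and WT 3 is the only one within a row, and it equals the estimate of a fit with row as a block.

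With all spots kept, the KO mean was below the WT mean in 9 of the 10 genes, against 55.9% of all genes tested. *Dgat1* and *Gpam* fell at an unadjusted p under 0.05 from limma. None rose. The background in the same fit was 11.1% of 16110 genes lower and 9.47% higher. The median difference of the 10 genes was -0.24, against -0.06 over all genes tested. With marked spots left out, *Gk* and *Dgat1* had too few values, none of the 8 testable genes fell and *Lpin1* rose, where 8.82% of 14711 genes fell and 10% rose. The median of those 8 was -0.14, against -0.03 over all genes tested. For *Gpd1*, *Gpam* and *Lpin1* a dimmer probe then stood for the gene, so the counts and medians of the settings are not of the same probes. No member passed the adjusted threshold in either fit.

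By probe and with all spots kept, 2 of the 20 probes fell and 1 rose at the unadjusted threshold, against 8.07% of 35651 probes lower and 9.30% higher. Without KO 3 there were 4 lower probes, of *Dgat1*, *Gk*, *Agpat3* and *Gpam*, where 8.84% of all probes were lower. Without any other single array there was 1, that of *Dgat1*, where 5.46 to 6.56% of all probes were lower. Without the marked spots none of 12 testable probes fell and 1 rose, against 6.74 and 9.70% of all probes. The KO mice lay below all WT mice on 4 probes, those of *Dgat1* and the brightest of *Gpam*, *Gk* and *Gpd1*, and above all WT mice on 2 probes of *Lpin1*. Over all probes, 13.6% had all KO mice below all WT mice and 11.9% had them above.

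**Figure D1:**
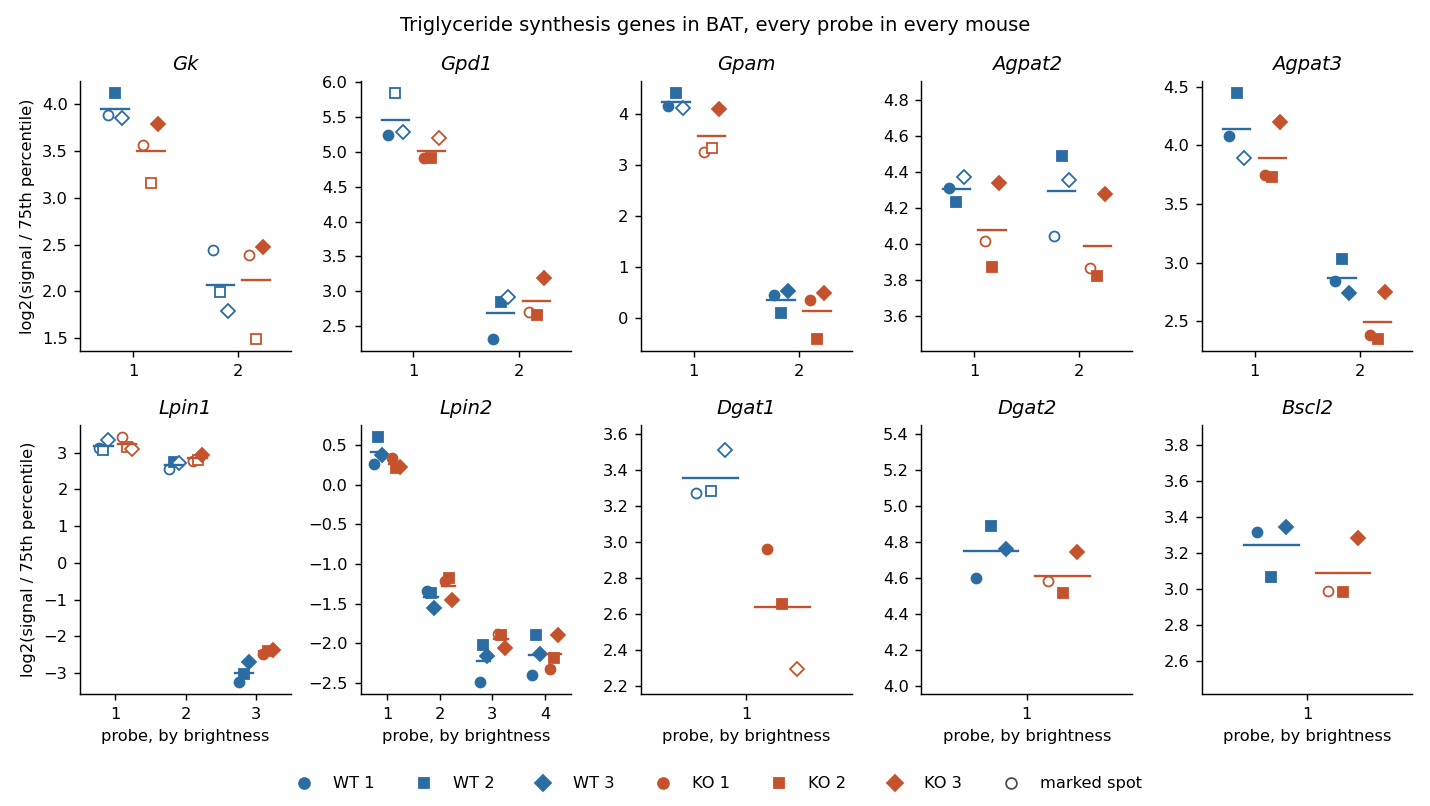
Level of each probe in each mouse, as log2 of the signal over the array's 75th percentile, with probes numbered from the brightest within a gene. Horizontal lines are group means (n = 3), open symbols are spots marked by the scanner software, and levels of different probes cannot be compared. *Dgat1* and the brightest probes of *Gk*, *Gpd1* and *Gpam* have all KO mice below all WT mice, and 15 of 20 probes have KO 3 as the highest KO mouse.

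Most of the lower values went with brightness. Over all tested probes, scaling by the 75th percentile left the dimmer probes above 0 and the brighter ones below it: in the brightest decile, the KO mean was the lower one for 90.1% of 3566 probes and the median difference was -0.26. Of the 20 triglyceride probes, 12 were in that decile, 9 of the 12 had a KO mean below the WT mean, and their median was -0.24. With scaling by the 75th percentile, a difference near -0.25 in a bright gene of this set thus equals that of bright probes in general. Quantile normalization brought the median of the brightest decile to -0.02, and that of the 12 probes to -0.0025, with 6 of them below 0. It gives every array the same distribution of signals, so a decile median near 0 is largely set by the method and cannot tell where the shift came from. Of the 12 probes, *Dgat1*, at -0.50 with quantile normalization, and the brightest probes of *Gpam* at -0.45, *Gk* at -0.22 and *Gpd1* at -0.11 lay below the median of that decile under both scalings, as did the second *Agpat2* probe at -0.06. This is a description with no test.

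**Figure D2:**
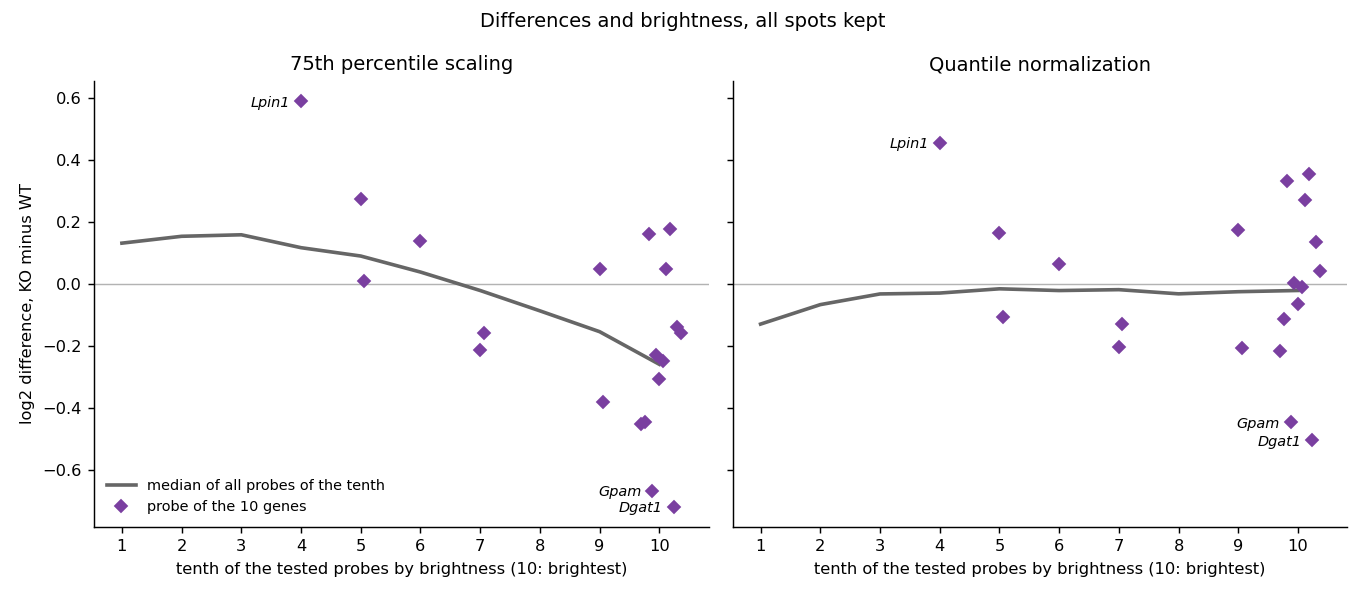
Log2 difference between KO and WT mice of the 20 probes (diamonds) against the decile of all 35651 tested probes by brightness, with the median of all probes of each decile as a line, all spots kept. The line falls to -0.26 in the brightest decile with scaling by the 75th percentile and stays at -0.02 there with quantile normalization, and the probes of *Gpam* and *Dgat1* lie below it in both panels.

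Glycerol 3-phosphate comes from glycerol through glycerol kinase, *Gk*, and from glycolysis through the cytosolic glycerol 3-phosphate dehydrogenase, *Gpd1*. On its brighter probe, *Gk* was at 3.89, 4.12 and 3.86 in the WT mice and at 3.56, 3.15 and 3.79 in the KO mice. All KO mice were below all WT mice, with KO 3 close to the lowest WT mouse (difference -0.45, SE 0.20, limma adjusted p = 0.306). On the dimmer *Gk* probe the groups overlapped, at 2.44, 1.99 and 1.79 in WT and 2.39, 1.49 and 2.48 in KO mice, and the difference was 0.05 (SE 0.31). The probes carry different RefSeq accessions of the gene, and marks on 4 and 5 of the 6 arrays left neither testable without the marked spots. Within row 2 the brighter *Gk* probe differed by -0.35. It was at -0.22 with quantile normalization, at -0.17 with normexp correction and at -0.28 without KO 2, and it passed the unadjusted threshold, at -0.60, without KO 3.

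The brighter *Gpd1* probe was at 5.24, 5.84 and 5.28 in the WT mice and at 4.91, 4.92 and 5.20 in the KO mice. All KO mice again lay below all WT mice, with KO 3 close to WT 1, and the difference of -0.44 (SE 0.21, limma adjusted p = 0.323) came to -0.11 with quantile normalization. The undivided signals of this probe overlapped, with KO 1 and KO 2 at 76486 and 79667 units and WT 1 at 75022. The dimmer *Gpd1* probe, of the same accession, went the other way, at 2.31, 2.84 and 2.92 in WT and 2.70, 2.66 and 3.19 in KO mice. Its difference was 0.16 (SE 0.23), or 0.35 (SE 0.30) without the marked spots and -0.07 within row 2. The 2 probes of *Gpd1* thus disagreed in sign, and neither passed the test with this scaling. With normexp correction and without the marked spots the dimmer *Gpd1* probe was at 0.50 and past the unadjusted threshold.

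*Gpam* encodes the mitochondrial glycerol 3-phosphate acyltransferase, which adds the first fatty acid. Its brighter probe was at 4.16, 4.41 and 4.13 in the WT mice and at 3.25, 3.34 and 4.11 in the KO mice. KO 1 and KO 2 lay well below every WT mouse, while KO 3 was just under the lowest of them. The WT mean was 4.23 ± 0.15 and the KO mean 3.57 ± 0.47 (SD, n = 3 each), so that *Gpam* fell to 0.631 times the WT level (log2 difference -0.67, SE 0.25, limma adjusted p = 0.246). This probe was marked on WT 3, KO 1 and KO 2, and so could not be tested without the marked spots. The call was lost, at -0.51 to -0.72, when any array other than KO 3 was left out, and the difference was -0.94 without KO 3. With row as a block it was -0.56 and not past the threshold. It remained past the unadjusted threshold under quantile normalization (-0.45), under normexp correction (-1.0) and in the authors' processed values (-0.43). The dimmer *Gpam* probe, of another accession and with no mark, was at 0.44, 0.10 and 0.53 in WT and 0.35, -0.41 and 0.49 in KO mice, with overlap and a difference of -0.21 (SE 0.27).

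The 250 bases before the *Gpam* start are shown for comparison with those of *Lpin1* given with that gene, since these are the genes with probes that passed the test in opposite directions and for which a promoter was at hand. The window is chr19:55099478-55099727 on the minus strand (RefSeq, GRCm38.p6), with the motif AGGTCA, the core bound by many nuclear receptors, in capitals at 196 to 191 bases before the start.
Gpam promoter: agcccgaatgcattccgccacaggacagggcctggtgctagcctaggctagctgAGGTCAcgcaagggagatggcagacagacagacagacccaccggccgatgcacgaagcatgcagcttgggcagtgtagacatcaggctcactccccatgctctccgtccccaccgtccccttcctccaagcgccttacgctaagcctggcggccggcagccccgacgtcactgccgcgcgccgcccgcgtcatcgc

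The next fatty acid is added by acylglycerol phosphate acyltransferases. *Agpat2* is the isoform whose loss in humans causes congenital lipodystrophy. On its brighter probe *Agpat2* was at 4.31, 4.24 and 4.38 in the WT mice and at 4.02, 3.88 and 4.34 in the KO mice. KO 1 and KO 2 were below every WT mouse and KO 3 was among them, and the difference of -0.23 (SE 0.17) did not pass the test. The other *Agpat2* probe showed the same order of the KO mice, at 4.05, 4.49 and 4.36 in WT and 3.87, 3.83 and 4.28 in KO mice (difference -0.31, SE 0.20). With quantile normalization the differences of these probes were 0.0047 and -0.06.

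*Agpat3* encodes a related enzyme of wider expression. Its dimmer probe carried no mark and was at 2.84, 3.03 and 2.74 in the WT mice and at 2.38, 2.35 and 2.75 in the KO mice. KO 3 overlapped with WT 3, and the difference was -0.38 (SE 0.17, limma adjusted p = 0.314), or -0.50 and past the unadjusted threshold when KO 3 was left out. The brighter *Agpat3* probe was at 4.08, 4.44 and 3.89 in WT and 3.75, 3.73 and 4.20 in KO mice. Here KO 3 lay above WT 1 and WT 3, and the difference was -0.25 (SE 0.21) with all spots and -0.37 (SE 0.23) without the marked one. Within row 2 it was 0.0019.

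Phosphatidate is dephosphorylated by lipins, which also act in the nucleus as coactivators of transcription. *Lpin1*, the main lipin of adipose tissue and muscle, had 3 probes of the same accession. The dimmest, without any mark, was at -3.25, -3.04 and -2.70 in the WT mice and at -2.47, -2.39 and -2.36 in the KO mice. All KO mice were above all WT mice, and the KO mice lay close together (WT -3.0 ± 0.27, KO -2.41 ± 0.06, SD, n = 3 each). The difference of 0.59 (SE 0.17, limma adjusted p = 0.152 over genes) is a rise to 1.50 times the WT level, and this probe alone carried the call of *Lpin1*. In its decile by brightness the median of all probes was 0.12 with this scaling and -0.03 with quantile normalization. Its signal was 175 to 502 units of intensity, against 9671 to 27352 for the other *Lpin1* probes. The probe of middle brightness was at 2.54, 2.75 and 2.71 in WT and 2.78, 2.81 and 2.95 in KO mice, with no overlap and a difference of 0.18 (SE 0.14). The brightest was marked on all 6 arrays and overlapped, at 3.13, 3.07 and 3.35 in WT and 3.43, 3.16 and 3.11 in KO mice (difference 0.05, SE 0.16).

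The 3 probes of *Lpin1* thus agreed in sign with all arrays but not in size. With quantile normalization they came to 0.46, 0.35 and 0.27 from the dimmest to the brightest, and the first 2 of these passed the unadjusted threshold, as all 3 did with normexp correction. For the dimmest probe, the difference was 0.38 to 0.58 under the other scalings, the normexp correction and the authors' processed values, and 0.46 to 0.73 when 1 array was left out, each past the unadjusted threshold in the fit with all spots. It was 0.30 and no longer past it with row as a block, and without WT 1 the probe lost the call in the fit without marked spots. *Lpin1* is abundant in skeletal muscle, and the 20 muscle markers averaged 2.11, 1.31 and -5.01 over WT 1 to 3 and -0.67, 3.31 and 1.25 over KO 1 to 3. The part of muscle RNA in the *Lpin1* difference was not tested.

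The *Lpin1* window lies at chr12:16610967-16611216 on the minus strand of the same build, with AGGTCA at 74 to 69 bases before the start.
Lpin1 promoter: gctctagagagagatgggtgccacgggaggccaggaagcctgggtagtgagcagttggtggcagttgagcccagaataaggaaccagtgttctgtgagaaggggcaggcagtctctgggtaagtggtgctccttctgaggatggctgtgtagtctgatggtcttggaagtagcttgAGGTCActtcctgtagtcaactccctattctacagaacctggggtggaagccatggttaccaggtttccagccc
A promoter was matched for 7 of the 10 genes, those other than *Gpd1*, *Dgat1* and *Dgat2*. Searched on both strands in the same 250 bases, AGGTCA was present in *Gpam* and *Lpin1* and in 13.9% of all 27025 promoters. The E-box CACGTG, which is its own reverse complement, was present in *Gk* and in 5.89% of all promoters. The GC box GGGCGG was present in *Gk*, *Gpam* and *Agpat2* and in 32.4% of all. No window of the 7 genes held TATAAA, which 13.0% of all promoters hold. The matches are descriptions of sequence and say nothing of binding in this tissue.

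*Lpin2*, a lipin of liver and brain for the most part, had 4 probes and all overlapped between the groups. The brightest was at 0.26, 0.60 and 0.37 in the WT mice and at 0.34, 0.21 and 0.22 in the KO mice (difference -0.16, SE 0.15). The next was at -1.34, -1.37 and -1.55 in WT and -1.21, -1.18 and -1.46 in KO mice (difference 0.14, SE 0.15). The remaining pair differed by 0.28 (SE 0.17) and 0.01 (SE 0.20). The *Lpin2* probes had different signs, and none passed the test.

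The last fatty acid is added by the diacylglycerol acyltransferases, which are unrelated in sequence. *Dgat1*, the enzyme of the endoplasmic reticulum that also re-esterifies fatty acids freed by lipolysis, was at 3.27, 3.28 and 3.51 in the WT mice and at 2.96, 2.65 and 2.30 in the KO mice. Every KO mouse was below every WT mouse, and KO 3, the highest KO mouse on 15 of the 20 probes, was the lowest here. The WT mean was 3.35 ± 0.13 and the KO mean 2.64 ± 0.33 (SD, n = 3 each), so *Dgat1* fell to 0.609 times the WT level (log2 difference -0.72, SE 0.20, limma adjusted p = 0.161 over probes). The fall was past the unadjusted threshold without any single array (-0.55 to -0.88) and with row as a block (-0.87, SE 0.30). It was no longer past it with quantile normalization (-0.50, SE 0.25) or with normexp correction (-0.34, SE 0.38). The single *Dgat1* probe was marked as not uniform or as an outlier on all WT arrays and on KO 3, so that the difference compares marked WT spots with 2 unmarked and 1 marked KO spot and could not be tested without them.

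*Dgat2*, the enzyme that uses newly made fatty acids at the lipid droplet, was at 4.60, 4.89 and 4.76 in the WT mice and at 4.58, 4.52 and 4.74 in the KO mice. The groups overlapped, with a difference of -0.14 (SE 0.15) that was 0.14 with quantile normalization. *Bscl2* encodes seipin, which shapes nascent droplets at the endoplasmic reticulum. It was at 3.32, 3.07 and 3.35 in WT and 2.99, 2.99 and 3.29 in KO mice, again with KO 3 among the WT mice, and differed by -0.16 (SE 0.16), or by 0.04 with quantile normalization. Neither gene passed the test under any setting tried.

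**Figure D3:**
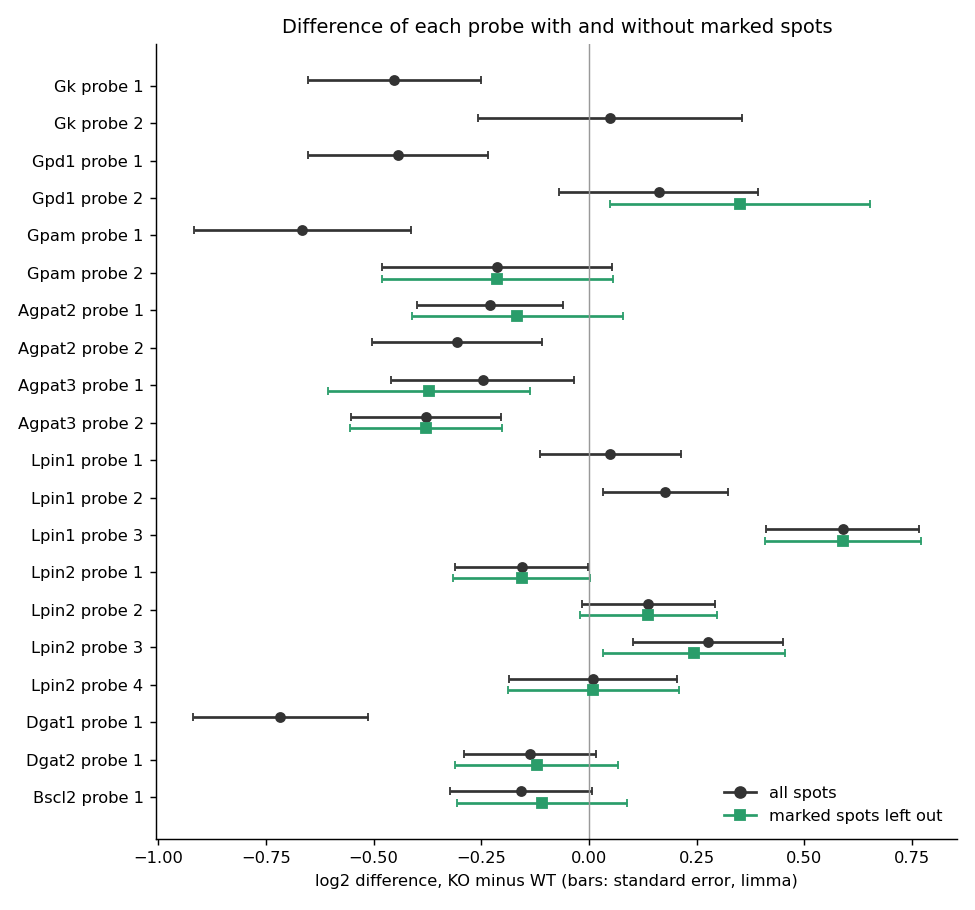
Log2 difference between KO and WT mice with its limma standard error for each of the 20 probes, with all spots (circles) and with marked spots left out (squares, 12 probes). *Dgat1* and the brightest probes of *Gk*, *Gpd1* and *Gpam*, the 4 lowest values, have no square because too few unmarked spots were left, and the dimmest *Lpin1* probe is at 0.59 in both.

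**Figure D4:**
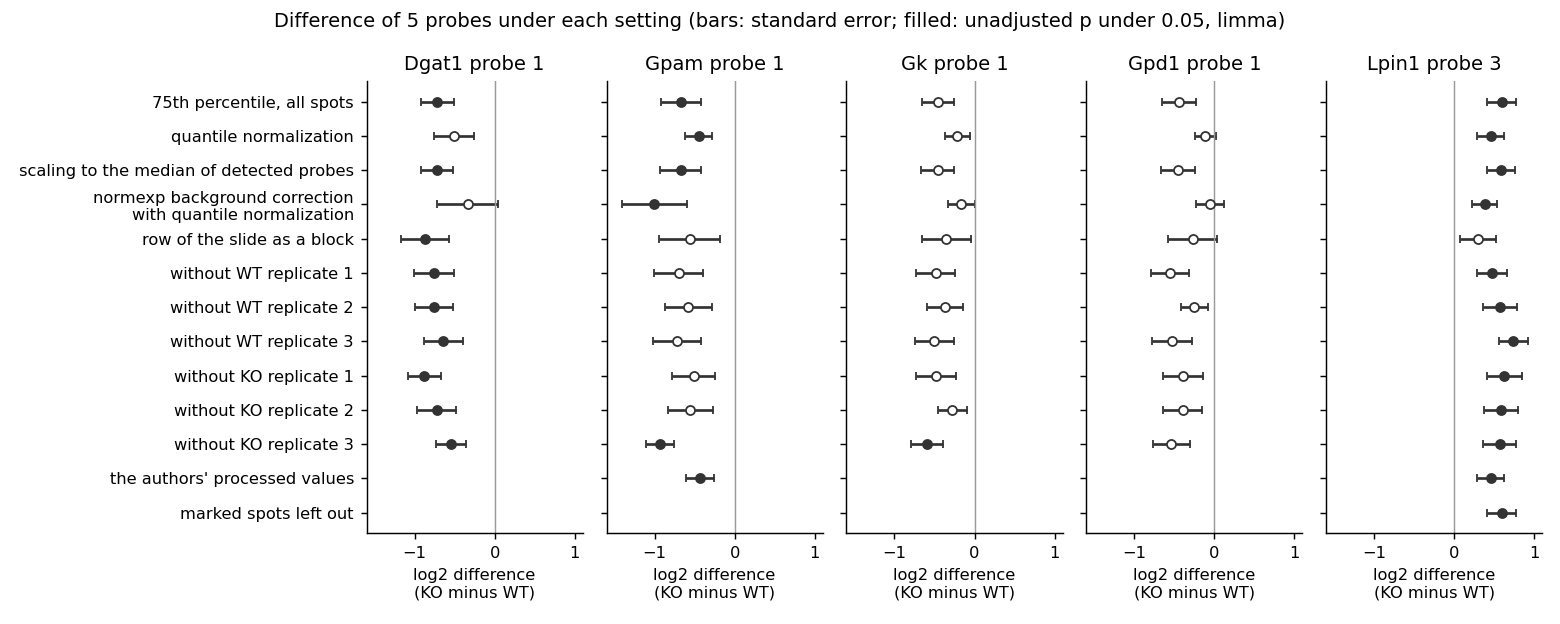
Log2 difference and standard error of 5 probes under each processing, with all spots kept unless stated. *Lpin1* stays above 0 and the other probes below 0 wherever they have a value, the *Gpd1* probe comes close to 0 at -0.05 with normexp correction, and *Gpam* has filled points, an unadjusted p under 0.05, without KO 3 but not without any other array.

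Over the 20 probes, KO 3 was the highest KO mouse on 15 and KO 2 the lowest on 11. Of the KO arrays, KO 3 had the lowest 75th percentile, 1599 units, and KO 2 the highest, 2633 units. WT 2, with the lowest of the WT arrays, 1435 units, was the highest WT mouse on 11 probes. How often these orders occur over all probes was not counted. KO 3 was also the highest KO mouse in the markers of all adipocytes. Their mean over 8 genes, which include *Adipoq*, *Fabp4* and *Plin1*, lay at 4.71, 5.0 and 4.69 in the WT mice and at 4.38, 4.38 and 4.88 in the KO mice, and 7 of the 8 had a lower KO mean. The 10 brown adipocyte markers averaged 2.26, 2.69 and 2.54 in WT and 2.40, 1.99 and 2.59 in KO mice, and those of *Ucp1* and *Cidea*, which define brown adipocytes, were well above background on all 6 arrays. The 8 measured white adipocyte markers averaged -2.17, -2.13 and -2.32 in WT and -2.15, -1.74 and -1.38 in KO mice. The KO mean was lower for 7 of the 10 brown and 2 of the 8 white markers. With this scaling it was lower for 55.9% of all genes tested. Over all probes it was lower for 90.1% in the brightest decile and for 33.3 to 39.8% in deciles 1 to 5, the dimmer ones. The marker counts were not set against probes of like brightness. *Nnat* at 1.18 and *Mest* at 1.11 had the largest differences of the white list, and *Hoxc8* was at -0.51. Two-sided exact permutation tests gave p = 0.3, 0.6 and 0.2 for the lists of all, brown and white adipocytes. The part of adipocyte RNA in the differences of the triglyceride genes was not tested. The skeletal muscle markers had a KO minus WT mean of 1.83, not distinguishable from 0 by a two-sided exact permutation test (p = 0.7, where 0.1 is the smallest possible), and -0.41 without WT 3.

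Of 48 further genes of the pathway and its branches, 39 were testable without the marked spots. Among them 5 fell and 2 rose at the unadjusted threshold, where 8.82% of all genes tested fell and 10% rose, and none passed the adjusted one. Their median difference was -0.08, against -0.03 over all genes tested. With all spots kept, 7 of 46 fell and 2 rose, where 11.1% of all genes tested fell and 9.47% rose. With quantile normalization *Lclat1*, *Mogat1*, *Pcyt2*, *Pemt*, *Gk5* and *Lpin3* kept their call with and without the marked spots. *Esrra* lost it without the marked spots and kept it with all spots.

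In the supply of glycerol 3-phosphate, 1 of 5 testable genes rose, where 10% of all genes tested did. *Gk5*, a paralog of glycerol kinase, was at -3.44, -3.78 and -3.19 in the WT mice and at -1.89, -2.42 and -2.32 in the KO mice. The groups were well apart, by 1.26 (SE 0.22, limma adjusted p = 0.0686), and *Gk5* stayed past the unadjusted threshold under every alternative that gave it a value. None of the 4 testable acyl-CoA synthetases, which activate fatty acids, passed, and the value of *Acsl1*, the main one of adipocytes, was -0.14 (SE 0.25). With all spots kept, *Acsl5* fell by 1.1 on the log2 scale (SE 0.29, limma adjusted p = 0.122). It is named after its value was seen. None of the 3 other glycerol 3-phosphate acyltransferases passed, with *Gpat2* at 0.19 (SE 0.31).

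Of the 4 other acylglycerol phosphate acyltransferases, *Lclat1*, which also remodels cardiolipin, fell. It was at -0.09, -0.10 and -0.12 in the WT mice and at -0.83, -0.96 and -0.66 in the KO mice (difference -0.71, SE 0.14, limma adjusted p = 0.0773). The call rested on its brightest probe, since the mean of its probes gave -0.22 and did not pass. *Lpin3*, the remaining lipin, rose: it was at -0.98, -1.35 and -1.22 in WT and -0.56, -0.85 and -0.46 in KO mice (difference 0.56, SE 0.17, limma adjusted p = 0.163), and 4 other genes of the phosphatidate phosphatase step did not pass. *Mogat1*, a monoacylglycerol acyltransferase, fell, from 1.80, 1.85 and 1.55 in WT to 0.86, 1.08 and 0.79 in KO mice. The groups did not overlap, and the difference of -0.83 (SE 0.15, limma adjusted p = 0.0743) was past the unadjusted threshold under every alternative that gave it a value. Neither testable gene of lipid droplet assembly passed, with *Fitm2*, which aids droplet budding, at 0.29 (SE 0.24). *Fitm2* was at 0.52 and past the unadjusted threshold without KO 2, and at 0.081 without KO 3.

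Diacylglycerol and phosphatidate also feed phospholipids, and 2 of 7 testable genes of these branches fell, where 8.82% of all genes tested did. *Pcyt2*, which makes the activated ethanolamine for phosphatidylethanolamine, was at 2.31, 2.78 and 2.38 in the WT mice and at 2.15, 1.31 and 1.52 in the KO mice (difference -0.83, SE 0.25, limma adjusted p = 0.163). *Pemt*, which converts phosphatidylethanolamine to phosphatidylcholine, was at 0.71, 1.13 and 0.81 in WT and 0.23, 0.45 and 0.14 in KO mice (difference -0.61, SE 0.17, limma adjusted p = 0.141). In both genes all KO mice were below all WT mice. With row as a block *Pcyt2* at -0.72, *Pemt* at -0.54 and *Lpin3* at 0.59 lost the call with differences of much the same size, and *Pcyt2* also lost it without WT 2, at -0.68.

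Of 6 testable regulators of lipid synthesis and oxidation, *Esrra* fell. This nuclear receptor, which drives mitochondrial genes, was at 3.22 and 3.53 in WT 1 and WT 2 and at 2.75, 2.71 and 3.07 in the KO mice, with WT 3 marked (difference -0.53, SE 0.20, limma adjusted p = 0.235). With quantile normalization and without the marked spots *Esrra* was at -0.30 and lost the call, as it did without KO 1 or KO 2. It also lost it with normexp correction, with no filter on dim probes and with the methods' t-test. *Esrra* kept the call with quantile normalization of all spots and in the authors' processed values. Its coactivator *Ppargc1a*, testable with all spots only and named after its value was seen, fell by 0.59 on the log2 scale (SE 0.15, limma adjusted p = 0.118). With quantile normalization of all spots *Ppargc1a* was no longer past the unadjusted threshold.

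**Figure D5:**
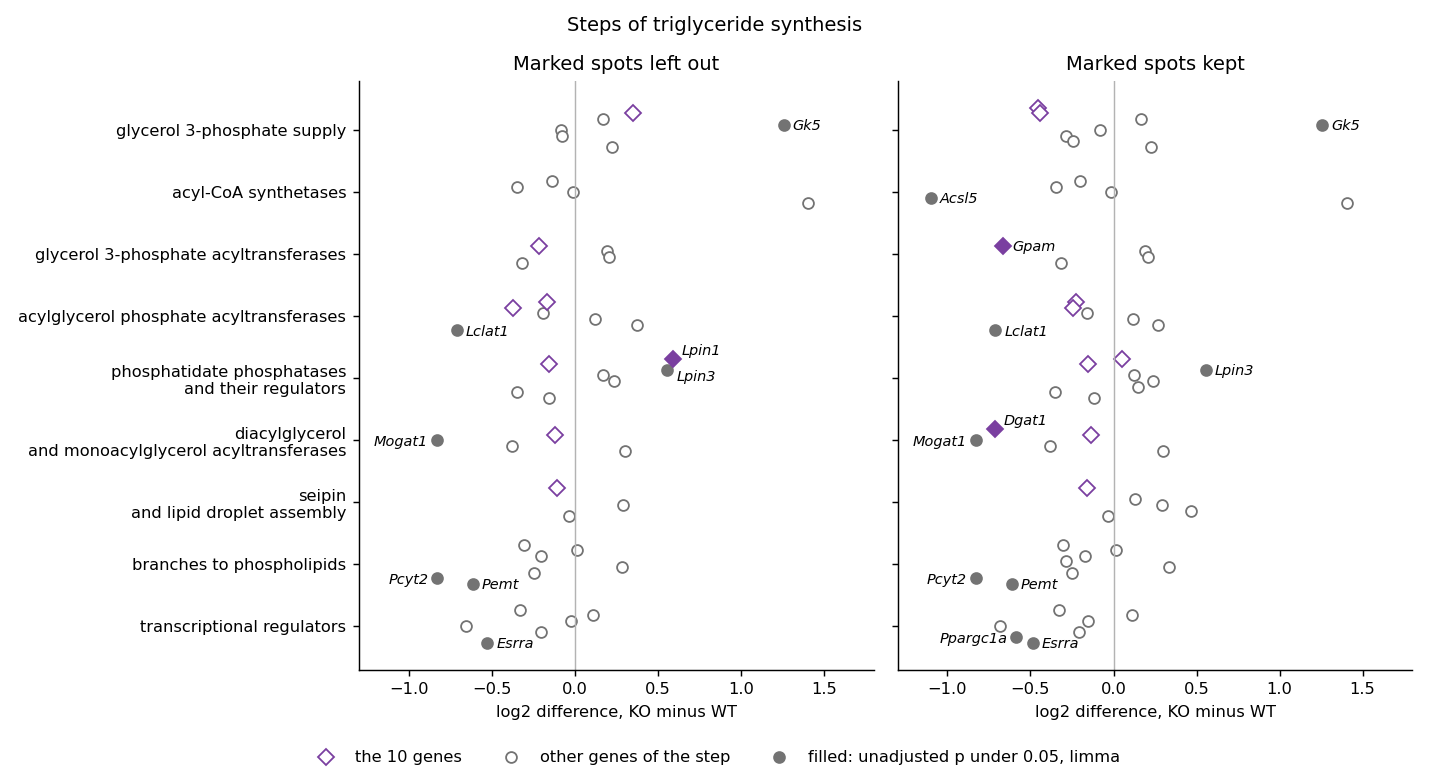
Log2 difference between KO and WT mice of every testable gene by step, with the 10 genes as diamonds and the others as circles, filled and named where the unadjusted p from limma is under 0.05. *Lpin1* passes with marked spots left out, *Gpam* and *Dgat1* pass with all spots, and *Gk5*, *Lclat1*, *Lpin3*, *Mogat1*, *Pcyt2*, *Pemt* and *Esrra* pass in both panels.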

How the data were processed

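BAT RNA of each mouse was hybridized with 1 dye to an Agilent mouse array. The authors deposited each spot's intensity as scanner output, background-subtracted and detrended across the array by Agilent Feature Extraction (version 11.5.1.1 in the file headers, 10.7 in the submitters' processing notes). They also deposited log2 values for 27497 probes, whose columns share 1 maximum and whose normalization is not given in the sources used here. The authors' log2 column of an array correlated at 0.9998 or more with the signals of that array and at 0.983 at most with those of another.

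Each signal was divided by the array's 75th percentile over spots that are no controls, and log2 was taken. Probes well above background on at least 3 arrays were kept. Spots bearing the software's marks for uneven or outlying spots were omitted, with at least 2 values per group required, or kept where stated. RefSeq accessions (GRCm38.p6) tied 33767 of 56605 probes to a gene, for which its brightest testable probe stood. The labels gave the groups, which lmFit and eBayes compared (limma 3.58.1, R 4.3.3, data.table in version 1.17.8). Tests were two-sided at 0.05 on the unadjusted p, as in the study's methods, and Benjamini-Hochberg adjustment ran over all genes or all probes. The methods treat the mice as separate samples, and their number, 3 per group, limits the precision. The steps were tested on simulated data.

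The 10 genes, the lists and the tests were chosen with earlier results of these data known. Named were the 10 genes with every probe, other pathway genes past the unadjusted threshold and, in a step with none, its first testable gene. The alternatives changed the scaling (quantile, or the median of detected probes), the background (normexp with offset 50, then quantile), the source (deposited log2 values), the filter (none, or all 6 arrays), the marked spots, the choice of probe (a gene's mean), the test (SAM, the methods' t-test, trend with robust eBayes), the block (slide row), the threshold (adjusted) and the arrays (each left out).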

Additional observations from a re-analysis of the deposited data

How the results depend on the processing

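Without the marked spots, 0 of the 8 testable genes were lower and 1 was higher, 0 of their 12 testable probes were lower and 1 was higher, and 5 of 39 other pathway genes were lower and 2 higher. Of all genes tested 8.82% were lower and 10% higher, and of all probes 6.74 and 9.70%. With the adjusted threshold 0 genes and 0 probes of any of these lists passed, where 27 of all 14711 genes and 34 of all 31238 probes did. With normexp correction 2 of 8 genes (*Gpd1* and *Lpin1*) and 2 probes were higher, and in the authors' processed values 1 gene and 1 probe were lower and 4 pathway genes higher. With normexp correction 1022 of all 14711 genes and 1882 of all 31238 probes were higher. In the authors' values 1582 of all 13383 genes were lower and 1146 higher, and 3076 of all 27497 probes were lower. With marked spots kept 2 genes and 2 probes were lower and 0 genes higher, and with quantile normalization besides, 1 gene and 1 probe were lower, 0 genes and 2 probes higher and 6 pathway genes higher. Of all 16110 genes, 1794 were lower and 1526 higher with marked spots kept, and 1701 and 1291 with quantile normalization besides. Of all 35651 probes, 2876 were lower with marked spots kept, and 3444 were lower and 2390 higher with quantile normalization besides. The mean of a gene's probes gave 4 higher pathway genes, and eBayes with trend and robust 1 lower probe. The same settings gave 1417 higher of all 14711 genes, and 2542 lower of all 31238 probes. With slide row as a block 0 of 5 testable genes and 0 of 9 testable probes were higher and 2 of 30 pathway genes lower. In that fit 298 of all 12351 genes were lower and 777 higher, and 1689 of all 27387 probes were higher. The skeletal muscle marker mean, taken with all spots kept, differed by -0.41 to 3.15 with 1 array left out. Leaving out 1 array, without the marked spots, gave 0 to 1 higher and 0 to 1 lower probes of the 10 genes. It gave 2 to 5 higher and 4 to 8 lower pathway genes. In these fits without the marked spots 1085 to 1407 genes were higher and 726 to 1372 lower, of 12996 to 14584 tested. Of 27176 to 30881 probes tested, 2155 to 2908 were higher and 1240 to 1970 lower. The cause of these shifts was not tested.

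The following had not passed the test and had another sign under the settings given. *Gpd1*, above 0 on its dimmer probe, was at -0.44 with marked spots kept and at -0.11 with quantile normalization besides, both on its brighter probe. With quantile normalization, the authors' values and quantile normalization of all spots, in that order, *Agpat2* was at 0.032, 0.024 and 0.0047, *Dgat2* at 0.081, 0.16 and 0.14, *Bscl2* at 0.044, 0.044 and 0.043 and *Acsl1* at 0.14, 0.13 and 0.12. *Acsl1* was at 0.073 with normexp correction, *Agpat3* at 0.016 in the authors' values and *Lpin2* at 0.13 as the mean of its probes. *Gpat2* was at -0.048 with quantile normalization, with and without marked spots, at -0.069 with normexp correction and at -0.13 to 0.41 with 1 array left out. *Gpam* on its dimmer probe was at -0.38 to 0.064 with 1 array left out.

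Settings for single probes with all spots kept were chosen after seeing the data. With quantile normalization the brighter *Agpat2* probe was at 0.0047, *Dgat2* at 0.14, *Bscl2* at 0.043 and the dimmest *Lpin2* probe at -0.10. In the authors' values these were at 0.024, 0.16, 0.044 and -0.10, and the brighter *Agpat3* probe at 0.016. With normexp correction that *Agpat3* probe was at 0.0093, the second *Lpin2* probe at -0.058 and the dimmest at -0.078. With slide row as a block the dimmer *Gpd1* probe was at -0.067, the brighter *Agpat3* probe at 0.0019, the brightest *Lpin1* probe at -0.12 and the dimmest *Lpin2* probe at -0.0016. With 1 array left out the dimmer *Gk* probe ranged over -0.13 to 0.36, the dimmer *Gpd1* probe over -0.026 to 0.28, the brightest *Lpin1* probe over -0.048 to 0.13 and the dimmest *Lpin2* probe over -0.12 to 0.13. No paired analysis was possible because the labels give the mice no shared numbers. No spot was saturated and every probe of the 10 genes was well above background. Among the limits of these values are the number of mice, the marked spots, the scaling of bright probes and the slide row.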
